A study of Mus musculus with 6 samples.

Results

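The high-numbered mouse miRNAs are the names in a table of small RNAs that begin with mmu-miR- and carry a number of 1000 or more. They are 198 of 679 mouse names, and the table also lists 478 names of other species and 67 predicted names. The limit at 1000 fell in a gap of the numbering. The highest number below it was 883, with miR-883a-3p at 10 counts and miR-883b-3p at 4 counts over all libraries, and the lowest above it was 1190, with miR-1190 at 6 counts. The rule uses the name and its number alone, but it was set with earlier results of these data known.

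The libraries were made from GC-1spg cells, an immortalised line derived from mouse spermatogonia. The cells received either an siRNA against METTL3 (si-METTL3, 3 libraries) or a control siRNA (si-NC, 3 libraries), and were collected 48 h later. Both groups are the same line in the same medium and differ, per the labels, in the siRNA alone. The labels print 1 and the same siRNA sequence for both groups, so the control sequence is not known here. Mettl3 mRNA is not measured in a table of small RNAs, so the knockdown was not checked. Nothing in the labels says that the libraries came from separate cultures, so p-values measure spread that may be technical.

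METTL3 carries the methyltransferase activity that puts m6A on RNA. miRNAs are cut from hairpins, in the usual route first by Drosha with its partner DGCR8 in the nucleus and then by Dicer, and either arm of the hairpin (5p or 3p) can be loaded into an Argonaute protein. miRNA numbers are given in the order of registration, so high numbers are mostly names added later, many from deep sequencing alone. Some later names lie in other small RNA genes. Box C/D and box H/ACA snoRNAs guide chemical changes of ribosomal RNA, and scaRNAs do the same for spliceosomal RNA in Cajal bodies. Others are mirtrons, whose hairpin is a spliced short intron, or match interspersed repeats.

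RefSeq (GRCm38.p6) held a mature sequence for 176 of the 198 names, and all 176 deposited sequences were identical to it. The sequences that the changes between groups turn on are given first. They are written 5′ to 3′ with the seed, bases 2 to 8, in capitals. Those of miR-1839-3p and miR-6539 come from the deposited table and have T in place of U, and the rest are RefSeq's. The first set lies in snoRNA or scaRNA genes of the GENCODE annotation.
miR-3535: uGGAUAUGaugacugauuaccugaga
miR-1839-5p: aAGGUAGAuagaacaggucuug
miR-1839-3p: aGACCTACttatctaccaacagc
miR-5121: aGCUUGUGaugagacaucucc
miR-1843b-3p: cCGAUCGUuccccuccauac
The second set is the other names that passed the test.
miR-6539: gCACAGTGatgaactctgagggct
miR-1249-3p: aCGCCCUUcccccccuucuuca
miR-1191a: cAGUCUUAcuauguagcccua
miR-1306-3p: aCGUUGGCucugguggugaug
The third set holds near-copies, whose reads the authors' counting could have split between names.
miR-3473b: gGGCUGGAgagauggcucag
miR-3473e: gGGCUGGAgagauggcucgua
miR-1843a-5p: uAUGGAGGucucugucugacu
miR-1843b-5p: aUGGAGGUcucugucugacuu
miR-3473b and miR-3473e share the seed GGCUGGA and differ at the 3′ end. miR-1843a-5p and miR-1843b-5p share one run of bases that is shifted by a single base, so their seeds differ.

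On the GRCm38 build (mm10, as in the submitters' processing notes), miR-3535 lies at chr1:86352062-86352087 on the minus strand. That is inside the snoRNA gene Gm24148, at the edge of an exon of Ncl, the gene of nucleolin. miR-1839-5p lies at chr7:81529919-81529940 on the plus strand, inside a gene named Mir1839 that GENCODE types as a scaRNA, and the sequence of miR-1839-3p is in the same transcript. miR-5121 lies at chr7:45126925-45126945 on the minus strand, inside Snord33, a box C/D snoRNA gene within the ribosomal protein gene Rpl13a. miR-1843b-3p lies at chr1:159340400-159340419 on the plus strand in Scarna3a, within an intron of Cop1. Its 5p arm is at chr1:159340362-159340382, and the near-copy miR-1843a-5p is at chr12:80391654-80391674 on the minus strand in Scarna3b. The sequence of miR-1843b-5p was found in Scarna3b as well as in Scarna3a. miR-1306-3p lies at chr16:18284248-18284268 on the minus strand in an exon of Dgcr8, the gene of Drosha's partner. miR-1249-3p, at chr15:84951545-84951566 on the minus strand, and miR-1191a, at chr7:27205615-27205635 on the plus strand, lie in exons of 5031439G07Rik and BC024978. miR-6539 had no RefSeq locus, and GENCODE places its hairpin on chromosome 14.

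The library totals behind the deposited TPM were 3998058 to 6132668 reads, and 3 counts stand for 0.489 to 0.75 CPM, counts scaled by library size. Of 6 male germ line miRNAs, 6 were listed, at a summed level of 537 to 551 CPM in si-NC and 571 to 617 CPM in si-METTL3. Of 6 blood and serum miRNAs, 6 were listed, at a summed 96.5 to 111 CPM in si-NC and 125 to 126 CPM in si-METTL3, and none of 6 pluripotency miRNAs was listed. Both summed levels were higher in every si-METTL3 library than in every si-NC library. The germ line sum was mostly miR-34c-5p (441 CPM, log2 fold of si-METTL3 over si-NC 0.25). The other germ line names had log2 folds below 0: miR-741-3p -0.38, miR-743b-3p -0.55, miR-871-3p -0.16, miR-465a-3p -0.22 and miR-470-5p -0.14. The blood sum was mostly miR-486a-5p (84.2 CPM, 0.46), with miR-451a, miR-144-3p and miR-150-5p at -0.20, -0.24 and -0.38. miR-122-5p and miR-223-3p were not tested. The part of these levels in the results was not tested. The libraries also differed in names of other species: bantam-y had 1, 52 and 136 counts in si-NC 1, 2 and 3 and 252, 139 and 116 in si-METTL3 1, 2 and 3. miR-750-y had 0, 83 and 177 counts in si-NC and 321, 0 and 0 in si-METTL3. These counts split the libraries into si-NC 1 alone, si-NC 2 and 3 with si-METTL3 1, and si-METTL3 2 and 3. What set them apart is not labelled, and results that changed with a term for these sets are named below.

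The high-numbered names were a small part of the miRNA pool. They had 38769 counts over the 6 libraries, 0.155% of all counts in the table. By library they had 6036, 6058 and 6210 counts in si-NC and 8795, 5837 and 5833 in si-METTL3. As a share of the library total this was 0.149%, 0.151% and 0.155% in si-NC and 0.143%, 0.131% and 0.128% in si-METTL3. The shares of the groups did not overlap, with means of 0.152% ± 0.0031 and 0.134% ± 0.00838 (SD, n = 3 each). No p is given for sums over these names, and 3 against 3 libraries allow no exact p below 0.1. In bulk cells, fewer cells that make an RNA and less of it per cell cannot be told apart.

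Detection of single names was thin. Of the 198 names, 165, 159 and 162 had a count in si-NC 1, 2 and 3 and 175, 166 and 163 in si-METTL3 1, 2 and 3. The largest number was in the deepest library. Thinned to the smallest total, the libraries held 158.9 to 165.7 names, so the groups overlapped. Counts were present in all 6 libraries for 109 names and in 1 or 2 libraries for 17 names.

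A few names held most of the counts. The first 6 names held 50% of the counts, 19 held 75%, 46 held 90% and 73 held 95%. Among the 481 other mouse names 5, 14, 34 and 52 were needed. The levels were lower: 102 high-numbered names (51.5%) had a mean under 1 CPM, against 99 of the other mouse names (20.6%), and the medians were 0.938 and 13.8 CPM. Only miR-1839-5p, miR-3535, miR-3473b and miR-3102-3p reached 100 CPM, and these 4 names held 40.7% of the counts. Another 21 names between 10 and 100 CPM held 40.8%. Numbers from 1000 to below 2000 covered 56 names with 39.5% of the counts, and those from 3000 to below 4000 covered 54 names with 46.4%. The 15 names from 5000 to below 6000 held 3.4%, the 73 names of 6000 and above held 10.7%, and no number between these ranges was listed.

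miR-1839-5p was first in mean TPM. Its counts were 927, 945 and 969 in si-NC and 1049, 777 and 730 in si-METTL3, which the authors' deposited TPM give as 228.7, 236.4 and 242.0 against 171.1, 173.7 and 159.8. miR-3535 was second, with 836, 873 and 767 counts in si-NC and 875, 640 and 602 in si-METTL3, or 206.3, 218.4 and 191.6 against 142.7, 143.1 and 131.8 TPM. Both had every si-METTL3 TPM below every si-NC TPM.

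The third name, miR-3473b, had 99.9, 104.3 and 134.1 TPM in si-NC and 116.9, 91.0 and 91.5 in si-METTL3. Its place in the order is uncertain, because its sequence was also found in transcripts of 343 other annotated genes. The sequences of miR-3470a, miR-3470b and miR-3473a were in transcripts of 441, 546 and 146 other genes. These were the only 4 names found in more than 10 other genes, and the counts of miR-3470a (10), miR-3473a (11) and miR-3470b (63) over all libraries were small. miR-3473e, which shares the seed of miR-3473b, was found in no other gene. Only exact matches in annotated transcripts were searched, so copies elsewhere in the genome could not be seen. miR-3473e had 63.7, 68.3 and 81.4 TPM in si-NC and 73.5, 61.0 and 57.6 in si-METTL3. In both, si-NC 3 was the highest si-NC library and si-METTL3 1 the highest si-METTL3 library.

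miR-3102-3p, from an exon of Arhgef17, had 109.1, 102.8 and 112.9 TPM in si-NC and 120.0, 88.7 and 95.5 in si-METTL3. miR-3068-5p, inside the gene Mir3068 that is typed as a snoRNA, had 79.2, 78.0 and 74.2 TPM against 67.8, 69.1 and 72.9. miR-1198-5p, from an intron of Gripap1, had 49.8, 60.3 and 62.4 TPM against 67.8, 56.1 and 50.1. The groups of miR-3102-3p and miR-1198-5p overlapped. Those of miR-3068-5p did not overlap in TPM, but did after TMM scaling (71.7 to 78.5 against 68.2 to 75.4 CPM).

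**Figure D1:**
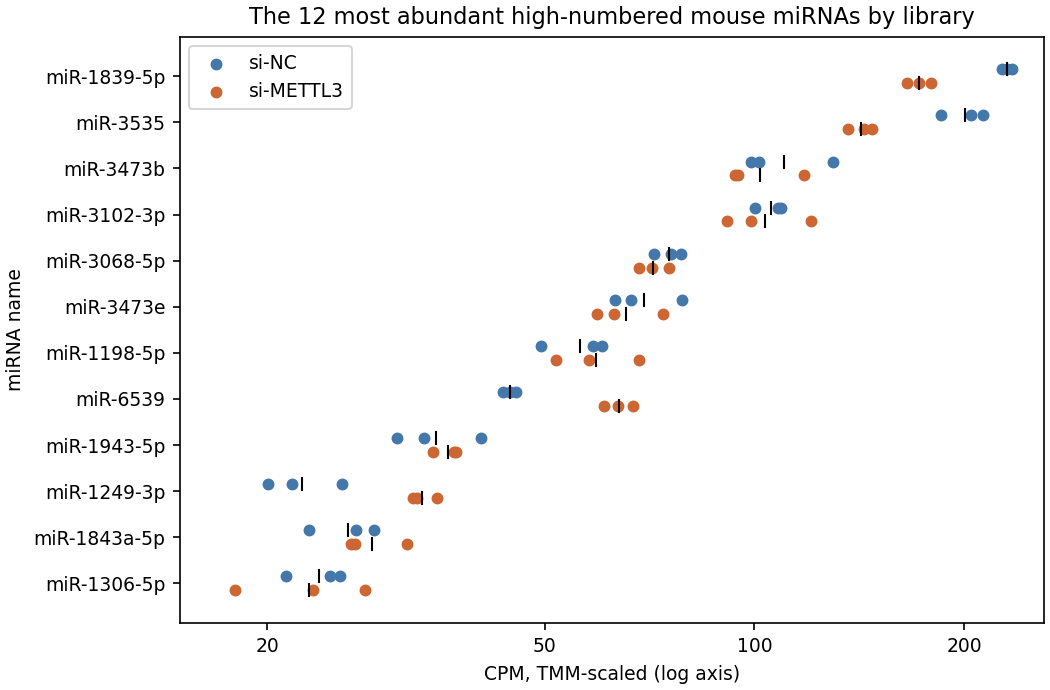
CPM (TMM-scaled, log axis) of the 12 names of largest mean TPM in each of the 3 si-NC and 3 si-METTL3 libraries, with a bar at each group mean. The groups of miR-1839-5p, miR-3535, miR-6539 and miR-1249-3p are apart, and those of the other 8 names overlap.

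The deposited length column ran from 18 bases (miR-3473a) to 26 bases (miR-3535, miR-6240 and miR-1291). Sequences of 21 to 23 bases made up 82.8% of the high-numbered names and 92.9% of the other mouse names. Sequences of 24 bases or more made up 10.6% of the names (21 names) and 27.2% of their counts, against 4.78% of the other mouse names (23 names) and 3.76% of theirs. Much of that excess was miR-3535: 26-base names took 14.5% of the high-numbered counts in si-NC and 11.2% in si-METTL3. The mean length weighted by counts was 22.65 ± 0.0675 bases in si-NC against 22.56 ± 0.0549 after si-METTL3 (SD, n = 3 each). The groups overlapped, and without miR-3535 the means were 22.12 and 22.16 bases. The median GC content was 54.4% for the high-numbered names and 45.5% for the other mouse names.

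**Figure D2:**
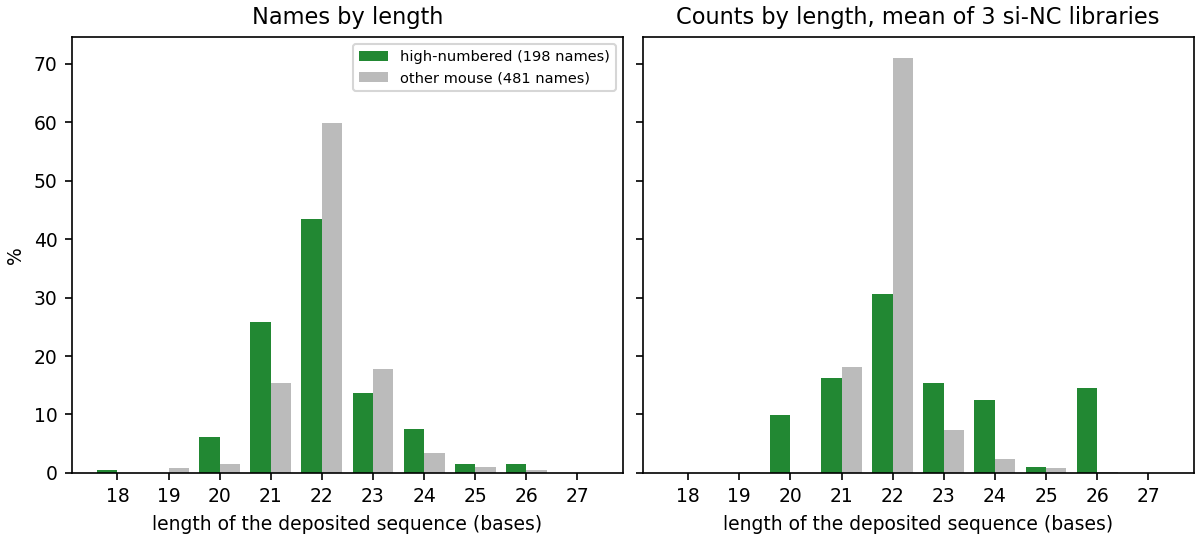
Percent of names (left) and of counts in the mean of the 3 si-NC libraries (right) at each length in bases, for the 198 high-numbered and the 481 other mouse names. The high-numbered counts have a second peak at 26 bases (14.5%), where the other mouse names have 0.0766%.

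By their RefSeq position, 97 of the 198 names lay in an intron and 43 in an exon of another gene. Another 16 lay in a small RNA gene, 7 antisense to a gene and 13 outside annotated genes. A snoRNA or scaRNA gene held 17 names, counting miR-1839-3p by its sequence. These 17 names (8.59%) held 38.7% of the high-numbered counts. The hexamer TGATGA, the core of the C box of box C/D snoRNAs, was searched on the sense strand. It was found in 4 high-numbered names (2.02%) and in 2 of the 481 other mouse names (0.416%). The 4 are shown with the hexamer in capitals.
miR-3535: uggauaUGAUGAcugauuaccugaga
miR-5121: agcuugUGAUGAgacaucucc
miR-6539: gcacagTGATGAactctgagggct
miR-3079-5p: tttgatcTGATGAgctaagctgg
The sequence of miR-3079-5p is also that of the deposited table. In miR-3535, miR-5121 and miR-6539 the hexamer covered bases 7 to 12 from the 5′ end and in miR-3079-5p bases 8 to 13. A match of letters does not show that a read came from a snoRNA. The search for the hexamer was not among the planned lists, and the difference between its shares was not tested.

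Few seeds were shared. Only 12 high-numbered names (6.06%) shared bases 2 to 8 with another listed mouse name, against 198 of the 481 other mouse names (41.2%). miR-6539 shared its seed with miR-128-3p, miR-1943-5p with miR-149-3p and miR-6240 with miR-330-3p. Among the high-numbered names themselves the pairs were miR-3473b with miR-3473e and miR-7018-3p with miR-7068-3p.

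The comparison of si-METTL3 with si-NC asks which small RNAs differ when the m6A writer is targeted. Of the 622 names tested in the whole table with edgeR's quasi-likelihood test, 29.3% passed an adjusted p of 0.05, 17.7% higher and 11.6% lower in si-METTL3. Of the 198 high-numbered names 61 had enough counts to be tested, and 9 of these (14.8%) passed, 4 higher and 5 lower. Among the other mouse names 34.4% of 349 passed, and the difference between the shares was not tested. The groups did not overlap in CPM for 13 of the 61 names, against 41.2% of all tested names. The median log2 fold was -0.02 for the 61 names and 0.01 for all 622. An unadjusted p under 0.05 in the edgeR test was reached by 12 of the 61. The share over all 622 names was not counted at that limit. It was at least 29.3%, because every name past the adjusted limit is also past this one.

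**Figure D3:**
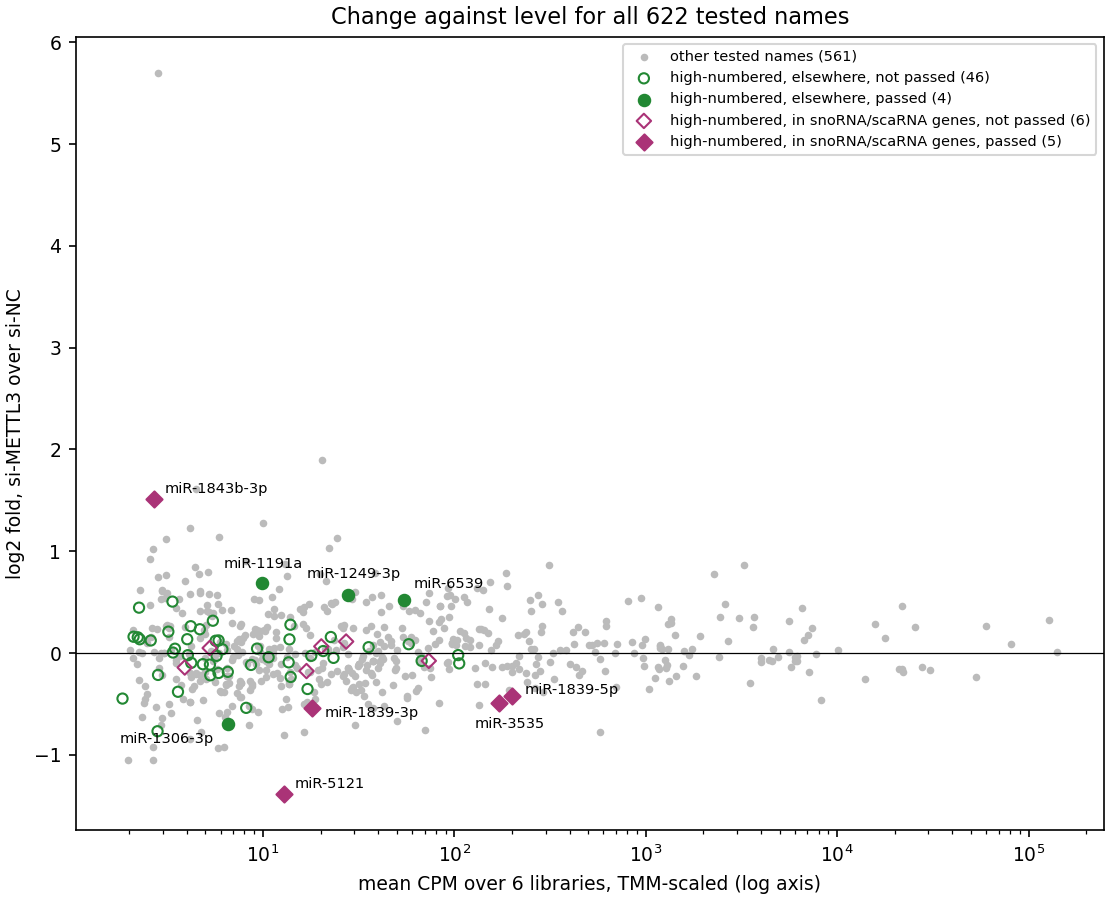
The log2 fold (si-METTL3 over si-NC) against mean CPM (log axis) for all 622 tested names, with the 61 high-numbered names as circles or, inside snoRNA or scaRNA genes, diamonds, filled where edgeR's adjusted p was under 0.05. The 2 most abundant high-numbered names and miR-5121 are below 0, and miR-1843b-3p is at the top of the diamonds.

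Names inside snoRNA and scaRNA genes supplied 4 of the 5 falls. miR-5121, from Snord33, had 91, 78 and 62 counts in si-NC and 50, 24 and 33 in si-METTL3, or 22.2, 19.0 and 14.97 against 8.20, 5.53 and 7.47 CPM. Every si-METTL3 library was below every si-NC library, and the log2 fold was -1.39 ± 0.20 (SE; edgeR adjusted p = 1.07e-05). miR-3535, from the snoRNA in Ncl, had 204.3, 212.7 and 185.2 CPM in si-NC and 143.5, 147.4 and 136.3 in si-METTL3. It fell by 0.49 ± 0.07 on the log2 scale (edgeR adjusted p = 3.9e-06), with no overlap.

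Both arms of miR-1839 fell. miR-1839-5p had 226.5, 230.3 and 234.0 CPM in si-NC and 172.1, 179.0 and 165.3 in si-METTL3, a log2 fold of -0.42 ± 0.06 (edgeR adjusted p = 9e-06). miR-1839-3p had 22.7, 19.98 and 21.97 CPM in si-NC and 16.6, 10.6 and 16.98 in si-METTL3, a log2 fold of -0.54 ± 0.18 (edgeR adjusted p = 0.0267). The groups were apart for each arm. The call of the 3p arm was lost without si-NC 3, without si-METTL3 2 and when the 3 library sets entered the model (edgeR adjusted p up to 0.356).

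The fifth call in this list was a rise. miR-1843b-3p, from Scarna3a, had 7, 5 and 5 counts in si-NC and 23, 15 and 21 in si-METTL3, or 1.71, 1.22 and 1.21 against 3.77, 3.46 and 4.75 CPM. All 3 si-METTL3 libraries were above all 3 si-NC libraries, at a log2 fold of 1.51 ± 0.40 (edgeR adjusted p = 0.00514). Its 5p arm had 15.4, 21.4 and 17.1 CPM against 19.7, 13.4 and 14.3, which overlapped (log2 fold -0.18 ± 0.19, edgeR adjusted p = 0.54). Reads of that arm could also have been counted as miR-1843a-5p, at 22.97, 28.5 and 26.8 against 26.4, 26.7 and 31.7 CPM (edgeR adjusted p = 0.591).

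Of the 17 names inside snoRNA or scaRNA genes 11 were tested. One was called higher and 4 lower (45.5%), against 29.3% of all tested names, 17.7% higher and 11.6% lower. The falls include both arms of 1 hairpin, miR-1839, so they come from 3 small RNA genes. The median log2 fold was -0.14, against 0.01 for all 622 names. Of the high-numbered names not placed in such genes 50 were tested, with 3 higher and 1 lower and a median of 0.01. The 6 that did not pass included miR-3068-5p (log2 fold -0.08 ± 0.08), miR-3068-3p (0.07 ± 0.15) and miR-1291 from Snora34 (-0.14). The other mouse table names inside such genes, miR-664-3p, miR-664-5p and miR-677-5p, had log2 folds of -0.32, -0.30 and -0.43, with overlapping groups and edgeR adjusted p of 0.451, 0.432 and 0.169. No test of the list was made.

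Summed over the 17 names, the level was 628.6, 644.0 and 601.2 CPM in si-NC and 491.1, 492.1 and 490.2 in si-METTL3. These groups were apart, with means of 624.6 ± 21.7 and 491.1 ± 0.95 CPM (SD, n = 3 each). The other 181 names summed to 859.0 ± 34.7 and 878.2 ± 64.4 CPM, and these groups overlapped. Without miR-1839-5p and miR-3535 the sum over the list was 193.6 ± 10.1 and 176.6 ± 11.5 CPM, with overlap. The drop in the share of the library total was 0.018 percentage points over all 198 names and 0.0021 without the 17. Of the high-numbered counts the 5 most abundant names held 48.7% ± 0.136 in si-NC against 43.2% ± 0.112 after si-METTL3 (SD, n = 3 each), and the groups were apart.

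**Figure D4:**
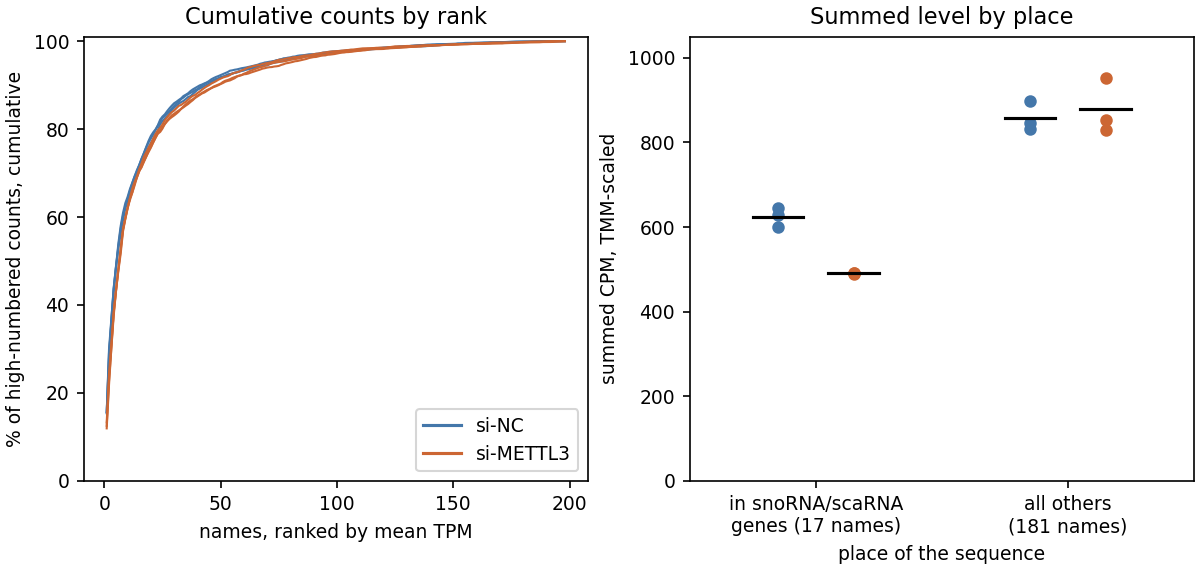
Left, cumulative percent of high-numbered counts against rank by mean TPM, 1 line per library. Right, summed CPM (TMM-scaled) by library with bars at the means: the 17 names inside snoRNA or scaRNA genes are lower in si-METTL3 (491.1 against 624.6 CPM), and the other 181 overlap.

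Of the names not placed in those genes 3 rose. For miR-6539, without a RefSeq locus, this rests on finding no exact match in annotated small RNA genes. miR-6539, the eighth name by mean TPM, had 186, 179 and 185 counts in si-NC and 371, 277 and 296 in si-METTL3, or 45.5, 43.6 and 44.7 against 60.9, 63.8 and 67.0 CPM. The groups were apart, and the log2 fold was 0.52 ± 0.09 (edgeR adjusted p = 9.89e-05). miR-1249-3p, from an exon of 5031439G07Rik, had 20.04, 25.6 and 21.7 CPM in si-NC and 32.8, 35.02 and 32.4 in si-METTL3. Its log2 fold was 0.57 ± 0.13 (edgeR adjusted p = 0.00161) with no overlap, and modelling the 3 library sets raised the adjusted p to 0.0743. miR-1191a, from an exon of BC024978, had 8.31, 7.31 and 6.76 CPM in si-NC and 9.84, 14.5 and 12.2 in si-METTL3, a log2 fold of 0.69 ± 0.21 (edgeR adjusted p = 0.0135). The groups were apart. This call was lost without si-NC 3, without si-METTL3 2, with DESeq2 and with the set term (adjusted p up to 0.292).

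One name not placed in snoRNA or scaRNA genes fell. miR-1306-3p, in the exon of Dgcr8, had 34, 33 and 34 counts in si-NC and 33, 20 and 22 in si-METTL3, or 8.31, 8.04 and 8.21 against 5.41, 4.61 and 4.98 CPM. The groups were apart, with a log2 fold of -0.70 ± 0.24 (edgeR adjusted p = 0.0268). The call remained in 1 of the 6 fits that left out a library, the one without si-METTL3 1. In the other 5 the edgeR adjusted p was 0.05 to 0.0742, at log2 folds of -0.65 to -0.72. The call was also lost with DESeq2 (log2 fold -0.72, adjusted p = 0.0928) and with the set term (log2 fold -0.58, edgeR adjusted p = 0.265). The 5p arm of the same hairpin had 25.4, 24.6 and 21.3 CPM in si-NC and 23.3, 17.97 and 27.6 in si-METTL3, which overlapped (log2 fold -0.05 ± 0.16, edgeR adjusted p = 0.871).

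**Figure D5:**
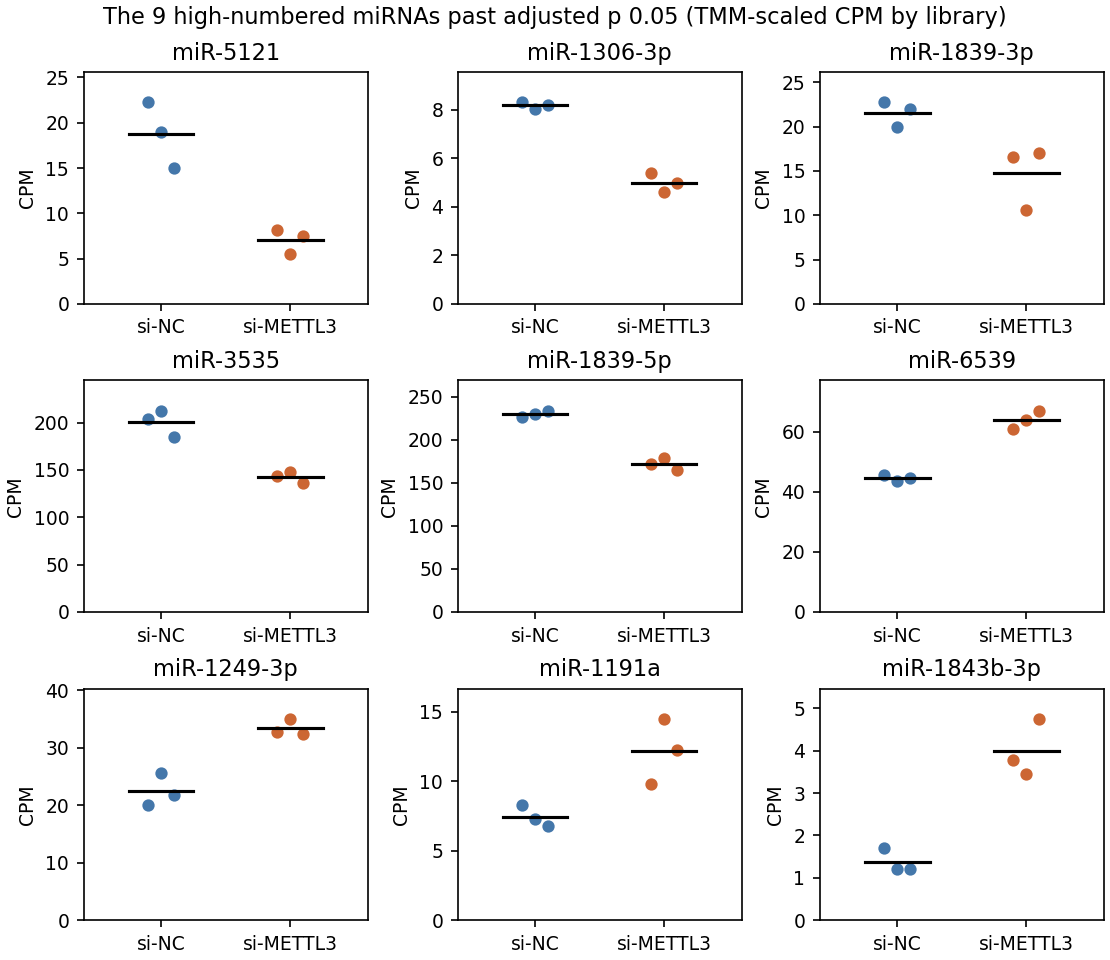
CPM (TMM-scaled) of the 9 high-numbered names past edgeR's adjusted p of 0.05 in each library, with a bar at the group mean and an own axis from 0 for each name. In each panel the 3 si-METTL3 values lie apart from the 3 si-NC values.

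Arm ratios were compared for the 17 hairpins with 1 name ending in 5p and 1 in 3p, both with counts in every library. miR-3102-5p did not have counts in every library, so miR-3102, whose hairpin has 4 names, was not among them. Over all libraries the 5p arm had more counts, except in miR-1948, miR-3109 and miR-3098. The log2 ratio of 5p to 3p for miR-1306 was 1.61, 1.61 and 1.37 in si-NC and 2.10, 1.96 and 2.47 in si-METTL3, with no overlap. For miR-1843b it was 3.17, 4.14 and 3.83 against 2.38, 1.95 and 1.58, again with no overlap. Each gave an exact permutation p of 0.1, the smallest that 3 against 3 allows, and an adjusted p of 0.34 over the 17 hairpins. These ratios use the same counts as the calls of miR-1306-3p and miR-1843b-3p above, so they are no separate result. The sequence of miR-1843b-5p is also in Scarna3b, so its reads need not come from the same hairpin as miR-1843b-3p. For miR-1839 the ratio averaged 3.42 and 3.58 and the groups overlapped. For miR-3068 the ratio averaged 1.94 and 1.79, for miR-1981 1.72 and 1.07 and for miR-3061 3.57 and 2.60, without overlap and at the same exact p. The groups of the other hairpins overlapped. Among hairpins of the other mouse names the share without overlap was not counted, so none can be set beside these.

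Numbers from 1000 to below 2000 gave 28 tested names, with 3 higher and 3 lower (21.4%, against 29.3% of all tested names). Of 11 names that share their number with a human miRNA 3 were tested, with miR-1249-3p higher and miR-1306-3p lower (66.7%). The remaining lists by place held few or no calls. Of the 97 names in introns 22 were tested and none passed with edgeR, against 29.3% of all names. Among them miR-1943-5p, from an intron of Tmem184b, had 40.6, 30.7 and 33.6 CPM in si-NC and 37.1, 34.6 and 37.4 in si-METTL3 (log2 fold 0.06 ± 0.12). Hairpins that end at both ends of an intron, as mirtrons do, gave 9 names, of which 3 were tested and none passed. miR-6944-3p, in an intron of Dbn1, had 14.2, 13.9 and 14.2 CPM against 15.4, 12.7 and 11.3. miR-1981-5p, in an intron of Marc2, had 15.4, 16.8 and 13.04 CPM against 12.6, 13.8 and 12, and miR-1981-3p 2.93, 7.07 and 4.59 against 5.91, 6.22 and 6.11. All 3 had overlapping groups.

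Exons of other genes held 43 names, of which 13 were tested, with 2 higher and 1 lower (23.1%, against 29.3% of all tested names). miR-8114, in an exon of Glul, the gene of glutamine synthetase, had 12.2, 11.9 and 13.5 CPM in si-NC and 14.9, 15.7 and 15.2 in si-METTL3. Its groups were apart, but it did not pass (log2 fold 0.28 ± 0.17, edgeR adjusted p = 0.254). miR-3102-5p.2-5p, in the exon of Arhgef17, had 18.1, 19.5 and 20.04 CPM against 16.6, 15.2 and 13.1. Its groups were apart too, and it did not pass (log2 fold -0.35 ± 0.17, edgeR adjusted p = 0.128). Among names without a RefSeq locus miR-5099 had 22.97, 17.3 and 21.5 CPM against 26.4, 18.7 and 16.98, which overlapped.

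miR-1247, whose hairpin lies in Dio3os at the end of the imprinted Dlk1-Dio3 region, was too low to be tested. miR-1247-5p had 1, 3 and 1 counts in si-NC and 19, 7 and 7 in si-METTL3, and miR-1247-3p had 0, 1 and 1 against 7, 7 and 1. Each si-METTL3 count of the 5p arm was above each si-NC count. With no filter on low counts edgeR called miR-1247-5p higher.

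The authors' deposited table of differing miRNAs lists 50 names, 4.08% of all names, and 9 of the high-numbered names, 3 higher and 6 lower. Its log2 folds in the authors' deposited table are -1.47 for miR-5121, 1.47 for miR-1843b-3p, 2.31 for miR-1247-5p and 2.52 for miR-1247-3p. The FDR in the authors' deposited table was under 0.05 for the first 3 of these. The other 5 were miR-1943-3p, miR-8106, miR-7654-5p, miR-1958 and miR-7083-5p. miR-7083-5p stands there at a log2 fold of -5.87 in the authors' deposited table and had 2, 0 and 5 counts in si-NC and 0, 0 and 0 in si-METTL3, where the deposited mean is the 0.01 TPM written for a count of 0. miR-8106 had 2, 6 and 7 counts against 1, 1 and 2, and miR-1943-3p 4, 9 and 11 against 7, 3 and 1. The smallest absolute log2 fold on the authors' deposited table was 1.01, so the larger counts of miR-3535 and miR-1839-5p, which fell less, are not on it.

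Sequences close to the high-numbered names were also listed under other names. There were 58 such variants of 55 names with 3597 counts, equal to 9.28% of the high-numbered counts, and 6 variants exceeded the name they resemble. miR-5099-z had 1086 counts over the 6 libraries against 571 for miR-5099. With the variants added to their names, 11 of 66 tested names passed, the same 9 and also miR-3102-5p.2-5p and miR-5100. In that fit 187 of all 616 tested names passed. miR-5100 alone had 5.38, 3.66 and 3.14 CPM in si-NC and 2.79, 3.00 and 3.62 in si-METTL3 (edgeR adjusted p = 0.451), and its variant miR-5100-z had a log2 fold of -0.93 ± 0.28 (edgeR adjusted p = 0.0133). The larger variant summed with miR-5100 was miR-10926-z, which shares 16 bases with it. That variant had 233 counts, against 153 for miR-5100-z and 96 for miR-5100. It did not pass by itself (log2 fold -0.55 ± 0.25, edgeR adjusted p = 0.109).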

How the data were processed

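Small RNA of 6 GC-1spg libraries was sequenced. The submitters' processing notes name RSEM, StringTie, Bowtie2 and fastp with the build mm10, without their roles. The sources used here do not say how reads were given names. Per the file headers the authors' deposited table holds a count of reads and a TPM per name and library. Each TPM of a count above 0 equals that count scaled by 1 library total, within 5e-05, and a count of 0 stands as a TPM of 0.01. Those totals were the library sizes. The authors' deposited list holds log2 fold changes, p-values and FDR from a test that is not named. Emptied lines, 2 in all, are not analysed here.

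Counts were tested with edgeR 4.0.16 in R 4.3.3 (quasi-likelihood, robust, TMM, filterByExpr, no block), with Benjamini-Hochberg adjustment over all 622 names, a common coefficient of biological variation of 0.0583 and 4 residual degrees of freedom. DESeq2 1.42.0 and limma 3.58.1 served as alternatives, and the scripts were tested on simulated data. Differences of arm ratios were compared with an exact two-sided permutation test. CPM are TMM-scaled and relative, so a rise of other RNAs lowers them. Places come from RefSeq and GENCODE on GRCm38, matched by name and, for shared sequences, by exact sequence in transcripts.

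The members and lists were chosen with earlier results of these data known. Named are the 12 names of largest mean TPM, those past adjusted p 0.05 or on the authors' list, their other arms, up to 3 per list, and the longest and shortest. miR-1291, miR-6240, miR-5100, miR-3079-5p and the repeat, seed-pair and variant names were added after values were seen.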

Additional observations from a re-analysis of the deposited data

How the results depend on the processing

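Under 17 alternative fits the folds of miR-1839-5p, miR-3535, miR-6539 and miR-5121 kept their direction and passed in each, and miR-1843b-3p passed in all 16 fits that tested it. The count of lower names was 5, and 3 to 5 when 1 library was left out. It was 3 without si-NC 3 and without si-METTL3 2. It was 6 with library totals alone, 7 with limma on log2(TPM + 1) or log2(TPM + 0.5), and 7 with variants summed with their names, the last chosen after seeing the data. In these fits 185 to 187 of all names tested passed, against 182 as reported. The count of higher names was 4, and 3 to 5 when 1 library was left out. The fits that left out a library called 153 to 171 of all names tested. With at least 10 CPM in 3 libraries, only 25 of the high-numbered names were tested, and 2 were higher. That fit called 6 of the 25, and 181 of all 413 names tested. A term for the 3 sets of libraries, chosen after seeing the data, left 2 higher and 3 lower. With this term 122 of all 622 names passed, against 182 without it. The term compares si-METTL3 1 with si-NC 2 and 3 alone. Replicate numbers did not pair the libraries (correlations of same-numbered libraries -0.337, -0.068 and -0.268), and with a replicate block 9 names passed, all 9 of those reported. Library totals alone moved the median log2 fold of all names to -0.06. The cause of these changes was not tested. Depth limits the 137 names that were not tested.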
